A study of Mus musculus with 4 samples.

Results

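The genes described are 10 markers of retinal ganglion cells, Pou4f1, Pou4f2, Isl1, Ebf1, Ebf3, Sncg, Rbpms, Nefl, Stmn2 and Gap43, out of 22690 genes in the deposited table. They were chosen by name from a list of known ganglion cell genes, with earlier results of these data known, and each matched 1 row. All 10 passed the level filter, a mean normalized read count of at least 10 over the libraries, as did 14480 genes in all. The RNA came from retinal cells of C57BL/6 mice at postnatal day 2, kept in serum-free culture briefly after dissection and then flow-sorted as 4N, the DNA content of a cell that has copied its genome and not yet divided. GFP-positive cells labelled as a Casz1 conditional knockout (cKO) gave 2 libraries, and GFP-negative cells labelled wild type (WT) gave another 2. Casz1 encodes a zinc finger transcription factor. Genotype and sorted fraction cannot be told apart, and the sources used here do not give the Cre driver, what GFP reports, how many animals went into a library or whether both fractions came from the same retinas.

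Ganglion cells are the output neurons of the retina and send their axons through the optic nerve to the brain. They are among the first neurons that the retina makes. In the mouse their birth is largely over by the day of birth, while the making of rods, bipolar cells and Mueller glia continues after it. The transcription factor Atoh7 makes progenitors competent for this fate, and Pou4f2 and Isl1 act together below it to switch on the ganglion cell programme, including Pou4f1. Ebf factors act in ganglion and amacrine cell development, and the remaining genes encode proteins of the mature neuron and its axon. Several are not exclusive to ganglion cells: Isl1 also marks starburst amacrine and bipolar cells, Ebf1 and Ebf3 are also found in amacrine cells, and Stmn2 and Gap43 belong to many neurons that grow axons.

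The column names of each group end in a pair of numeric tags, written below as B and A, so that every group has a library B and a library A. No source used here gives their meaning. Reads in genes numbered 89473701 in cKO library B and 22326119 in cKO library A, against 83753377 in WT library B and 75832360 in WT library A. cKO library A stands apart from the others, with a Pearson correlation across genes of 0.902 to 0.918 with each of them, against 0.988 to 0.993 among the other 3. The study ran 2 independent experiments, but no label says whether the libraries of a group come from separate animals, so their spread may be partly technical. The targeted gene Casz1 had normalized counts of 10772 and 8687 in the cKO libraries B and A, against 11995 and 13162 in the WT libraries B and A. The log2 fold change was −0.38 (limma, adjusted p = 0.771); the count covers the whole gene, so it does not measure the deletion itself.

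The sequences of the family members bear on whether their reads can be told apart. Pou4f1 and Pou4f2, a pair of POU-domain factors, share an exact run of 71 bases in their coding sequences (GENCODE M21, GRCm38). The run starts at coding base 841 of Pou4f2 and at coding base 871 of Pou4f1, both counted from the first base of the start codon. It is shown because a read that falls wholly inside it could come from either gene.

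Pou4f2 and Pou4f1, shared coding run: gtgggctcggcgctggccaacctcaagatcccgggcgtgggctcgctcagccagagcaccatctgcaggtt

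Of the 3155 distinct words of 50 bases in the Pou4f2 transcript, 23 (0.729%) also occur in the Pou4f1 transcript, where they make up 0.523% of 4396. No source used here says how such reads were counted. Ebf1 and Ebf3, a pair of helix-loop-helix factors with a shared DNA-binding domain, had 0 such words in common, and their longest exact run is 24 bases. Nefl lies opposite Nefm, whose annotation in GENCODE M21 overlaps 1108 exon bases of Nefl on the other strand. The library kit marks strand but the strand setting of the counting is not given, so the reads of these neurofilament neighbours may not be fully told apart. An unlisted antisense gene, Gm45278, shares 355 exon bases with Ebf3, and the remaining 8 members share no exon base with another annotated gene.

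RefSeq promoter windows on GRCm38.p6 were available for 6 of the 10 genes, Pou4f1, Pou4f2, Isl1, Ebf1 (with 2 windows), Ebf3 and Sncg. The 250 bases before the start differ widely in base composition, and the windows with the most and the fewest CG dinucleotides are printed 5′ to 3′, with each CG in capitals. The Pou4f1 window (chr14:104468000-104468249, minus strand) is 78.0% G and C and holds 47 CG dinucleotides. The Sncg window (chr14:34374670-34374919, minus strand) is 61.6% G and C and holds 7.

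Pou4f1: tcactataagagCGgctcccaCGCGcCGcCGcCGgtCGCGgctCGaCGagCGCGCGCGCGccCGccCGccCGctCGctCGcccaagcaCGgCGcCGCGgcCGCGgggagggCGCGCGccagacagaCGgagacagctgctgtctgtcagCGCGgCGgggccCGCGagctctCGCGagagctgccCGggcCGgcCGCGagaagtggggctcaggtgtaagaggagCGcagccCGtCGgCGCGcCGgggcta

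Sncg: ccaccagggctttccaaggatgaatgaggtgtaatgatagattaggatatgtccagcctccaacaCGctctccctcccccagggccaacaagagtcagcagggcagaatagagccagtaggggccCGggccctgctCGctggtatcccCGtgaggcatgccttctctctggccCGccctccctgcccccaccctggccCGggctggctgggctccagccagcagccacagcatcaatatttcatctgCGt

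A POU-type core (AATTAAT), a LIM homeodomain site (CTAATG) and a TATA box (TATAAA) were searched on both strands of the same 250 bases. None of the 7 member windows held any of them, and over all 32851 windows 2.46% held the POU-type core, 6.36% the LIM site and 12.4% the TATA box. The absence of these letters says nothing about binding by the factors.

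Per kilobase of merged exon, Gap43, Stmn2, Sncg and Nefl were the most abundant members and Ebf1, Pou4f2 and Pou4f1 the least. The mean over the 4 libraries, in normalized counts per kilobase, was 1351 ± 207 for Gap43, 1077 ± 222 for Stmn2, 789 ± 361 for Sncg and 410 ± 124 for Nefl (SD, n = 4). It was 136 ± 21.7 for Ebf3, 112 ± 22.0 for Rbpms and 110 ± 51.9 for Isl1. At the low end Pou4f1 had 67.7 ± 22.8, Pou4f2 had 48.2 ± 18.6 and Ebf1 had 30.4 ± 20.1. Between neighbours in that order the ranges over libraries overlapped in all cases but Nefl above Ebf3. Within each library, however, Gap43 was above Stmn2, Stmn2 above Sncg and Sncg above Nefl in all 4. Rbpms and Isl1 were not ordered, since Rbpms was higher in 1 library of 4.

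The median over the 10 members was 124 normalized counts per kilobase, against 367 over all tested genes. Progenitor markers in the same libraries had a median of 4685, rod and photoreceptor precursor markers 736, amacrine and horizontal cell markers 588, microglial markers 398, bipolar cell markers 136 and astrocyte and endothelial markers 29.9. Among the other ganglion cell lists it was 149 for the transcription factors, 127.5 for the surface, synapse and RNA-binding genes and 1671 for the axon and cytoskeleton genes. Gap43 stood above 82.7% of the tested genes per kilobase and Pou4f1 above 22.3% of them. The libraries are labelled as 4N retinal cells and not as ganglion cells, which are neurons that have left the cell cycle. Which cells these reads came from was not tested, and fewer ganglion cells in a sample cannot be told apart from less of their RNA per cell.

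**Figure D1:**
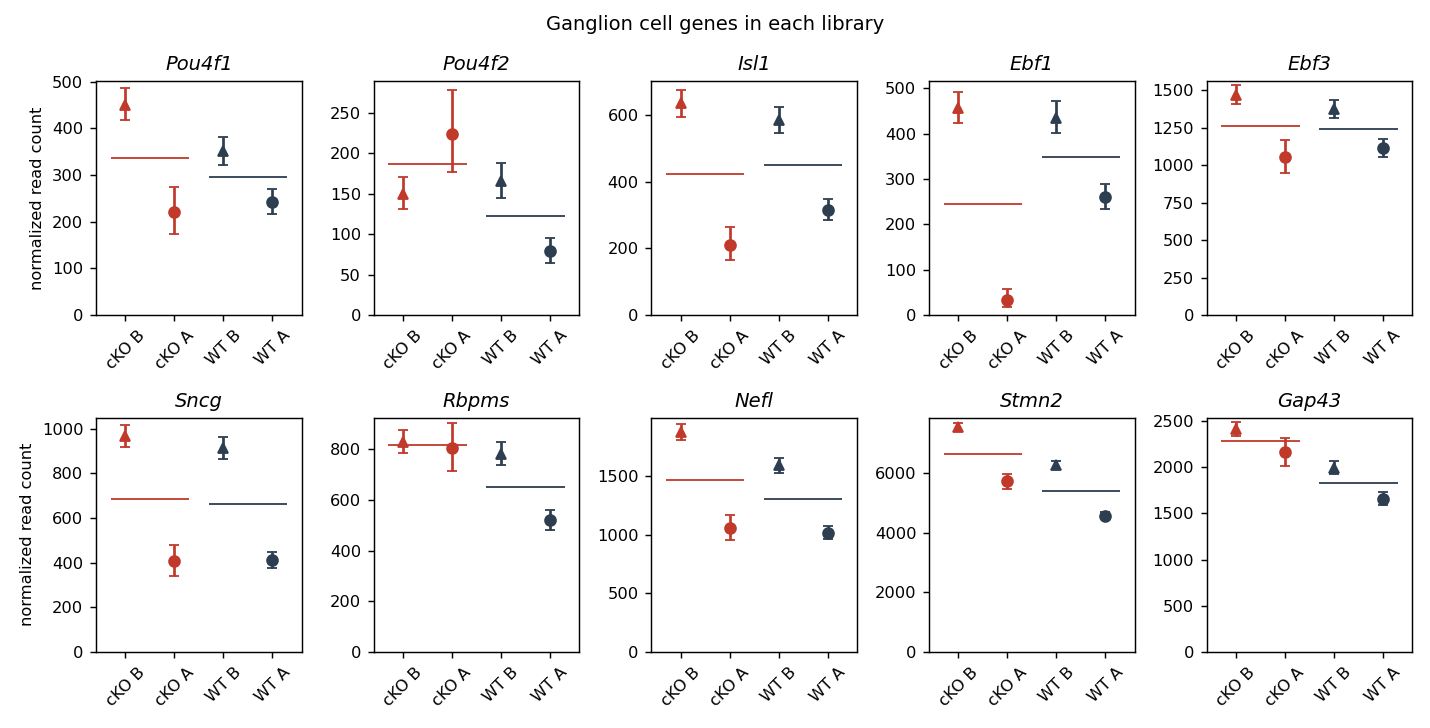
Normalized read counts (y axis, linear from 0) of the 10 genes in the cKO libraries B and A (red) and the WT libraries B and A (dark), with triangles for tag B and circles for tag A. Bars are exact 95% Poisson intervals of the reads, which cover counting error only, and lines are group means; in 7 of the 10 panels both triangles lie above both circles.

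No member passed the test between cKO and WT, and for 8 of the 10 the estimated difference was under 0.5 on the log2 scale in either direction. Of the 10 genes 0 had an adjusted p under 0.05 in limma on log2(normalized count + 1), where the share over all genes was 0.00%, and 0 had an unadjusted p under 0.05, where it was 1.89%. The counts were also 0 of 10 in edgeR and in DESeq2 on the recovered reads, adjusted and unadjusted. Of all 14480 tested genes, 0 passed in edgeR and 1 in DESeq2, and 208 and 369 had an unadjusted p under 0.05. The log2 fold change was above 0 in 8 of the 10, against 46.7% of all tested genes, with a median of 0.13 against −0.03 over all tested genes. The median turned in fits on 3 libraries: it was −0.25 where cKO library B was dropped and −0.15 where WT library A was, each with 4 of the 10 members above 0. The groups did not overlap for 2 members, Rbpms and Gap43, each with both cKO libraries above both WT libraries. Over all tested genes the groups did not overlap for 39.5%, with cKO the higher one for 17.2%, so 2 of 10 is below the share for either direction and close to the share for cKO higher. With 2 libraries per group, the 95% intervals are wide, so a miss does not show that the levels are alike.

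Pou4f2 and Pou4f1 are the POU-domain factors that specify ganglion cells and refine their subtypes; gene positions here and below are from GENCODE M21 on GRCm38. Pou4f2 (ENSMUSG00000031688; chr8:78433010-78436645, minus strand) had normalized counts of 150 and 224 in the cKO libraries B and A, against 165 and 79.0 in the WT libraries B and A. The cKO values fell on both sides of the higher WT value, and the gene was the only member whose order between the tags was opposite in the groups. Its means were 187 ± 51.9 in cKO and 122 ± 60.8 in WT (SD, n = 2 each), a log2 fold change of 0.68 ± 0.53 (SE) and a 95% interval of −0.65 to 2.01 (limma, adjusted p = 0.771). The value for cKO library A rests on 80 reads, with an exact 95% Poisson interval of 177 to 278 normalized counts, and that for WT library A on 104 reads, with 64.5 to 95.7. The log2 difference was −0.14 within tag B and 1.49 within tag A.

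Pou4f1 (ENSMUSG00000048349; chr14:104461676-104467999, minus strand) had 451 and 221 in the cKO libraries B and A, against 351 and 242 in the WT libraries B and A. The cKO libraries lay outside the WT pair on both sides, the one at tag B above it and the one at tag A below it. The means were 336 ± 163 in cKO and 296 ± 76.7 in WT (SD, n = 2 each), with a log2 fold change of 0.11 and a 95% interval of −1.01 to 1.24 (limma, adjusted p = 0.927).

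Isl1, the LIM-homeodomain partner of Pou4f2, showed a similar spread within groups. The gene (ENSMUSG00000042258; chr13:116298281-116309689, minus strand) had 634 and 210 normalized counts in the cKO libraries B and A, against 583 and 316 in the WT libraries B and A. The cKO library at tag A was the lowest of the 4 and the one at tag B the highest. The log2 fold change was −0.23 ± 0.61 (SE) (limma, adjusted p = 0.889), with 0.12 within tag B and −0.59 within tag A.

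Ebf1 and Ebf3, the helix-loop-helix factors, differed from each other in cKO library A. Ebf1 (ENSMUSG00000057098; chr11:44617317-45008091, plus strand) had 457 and 33.5 in the cKO libraries B and A, against 436 and 260 in the WT libraries B and A. The low value rests on 12 reads, with an exact 95% Poisson interval of 17.3 to 58.6 normalized counts, and is below every other library. The log2 fold change was −1.42 ± 1.19 (SE), with a 95% interval of −4.39 to 1.54 (limma, adjusted p = 0.771). At tag B the log2 difference was 0.07 and at tag A it was −2.92, and without cKO library A the pooled value was 0.44. In edgeR and DESeq2, which fit the reads and not the logs, it was −0.46 and −0.49. Ebf3 (ENSMUSG00000010476; chr7:137193673-137314445, minus strand) had 1468 and 1053 in the cKO libraries B and A, against 1371 and 1112 in the WT libraries B and A. Its log2 fold change was 0.01 ± 0.26 (SE) (limma, adjusted p = 0.990).

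When single libraries were left out, Isl1 and Ebf1 were the 2 members that passed anywhere. Both did so without cKO library B, as lower in cKO, with log2 fold changes of −1.03 for Isl1 (limma, adjusted p = 0.0130) and −3.29 for Ebf1 (adjusted p = 9.43e-09). In that fit the lone cKO library is library A, it is assumed to vary like the WT pair, and 39.8% of all tested genes passed, so 2 of 10 is below the background. Without cKO library A, 0 of the 10 members passed, against 0.373% of all tested genes. All 10 log2 fold changes were then above 0, with a median of 0.47, in a fit that sets a tag B library against a WT pair with both tags.

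Sncg and Rbpms encode γ-synuclein, a small cytosolic protein of neurons, and an RNA-binding protein that marks ganglion cells across subtypes. Sncg (ENSMUSG00000023064; chr14:34370274-34374789, minus strand) had 965 and 405 normalized counts in the cKO libraries B and A, against 911 and 409 in the WT libraries B and A. Libraries with the same tag lay close together across groups, while the libraries of a group were far apart, and the groups overlapped. Its group means were 685 ± 396 in cKO and 660 ± 355 in WT (SD, n = 2 each), and its log2 fold change was 0.03 with a 95% interval of −1.36 to 1.43 (limma, adjusted p = 0.984).

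Rbpms (ENSMUSG00000031586; chr8:33782643-33929863, minus strand) had 830 and 805 in the cKO libraries B and A, against 781 and 519 in the WT libraries B and A. Both cKO libraries lay above both WT libraries, and WT library A was low. The means were 817 ± 17.7 in cKO and 650 ± 185 in WT (SD, n = 2 each), with a log2 fold change of 0.36 and a standard error of 0.28 (limma, adjusted p = 0.771). The log2 difference was 0.09 within tag B and 0.63 within tag A.

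None of the axonal genes Nefl, Stmn2 and Gap43 passed. They encode the light neurofilament chain, the microtubule regulator SCG10 and a growth cone protein. Nefl (ENSMUSG00000022055; chr14:68083863-68089095, plus strand) had 1878 and 1059 in the cKO libraries B and A, against 1591 and 1015 in the WT libraries B and A. Its log2 fold change was 0.15 ± 0.37 (SE) (limma, adjusted p = 0.883), and the groups overlapped. At tag A the exact 95% Poisson intervals overlapped too, with 955 to 1171 in cKO and 961 to 1071 in WT. Nefm, the neighbour on the other strand, had 2139 and 668 in the cKO libraries B and A, against 1931 and 1505 in the WT libraries B and A. Its log2 fold change was −0.51, with 0.15 within tag B and −1.17 within tag A (limma, adjusted p = 0.773). The fold changes of Nefh, another neurofilament chain, and Prph, the intermediate filament peripherin, were −0.38 and −0.70 on the log2 scale, and neither passed.

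Stmn2 (ENSMUSG00000027500; chr3:8509360-8561606, plus strand) had 7568 and 5728 normalized counts in the cKO libraries B and A, against 6273 and 4571 in the WT libraries B and A. Each cKO library was above the WT library of its tag, by 0.27 on the log2 scale at tag B and 0.33 at tag A, but WT library B was above cKO library A. The means were 6648 ± 1302 in cKO and 5422 ± 1204 in WT (SD, n = 2 each), a log2 fold change of 0.30 ± 0.25 (SE) (limma, adjusted p = 0.771).

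Gap43 (ENSMUSG00000047261; chr16:42248442-42340651, minus strand) had 2413 and 2163 in the cKO libraries B and A, against 1995 and 1662 in the WT libraries B and A. The groups did not overlap, and the log2 difference was 0.27 at tag B and 0.38 at tag A. Its means were 2288 ± 177 in cKO and 1828 ± 235 in WT (SD, n = 2 each), and the log2 fold change of 0.33 had a standard error of 0.20 and a 95% interval of −0.17 to 0.83 (limma, adjusted p = 0.771). Higher values in cKO at both tags were found for 4 of the 10 members, Rbpms, Nefl, Stmn2 and Gap43, against 32.7% of all tested genes. At tag B alone 9 of the 10 members were higher in cKO, against 49.3% of all tested genes, with a median log2 difference of 0.11. At tag A alone it was 5 of the 10, against 46.8%, with a median of 0.02.

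**Figure D2:**
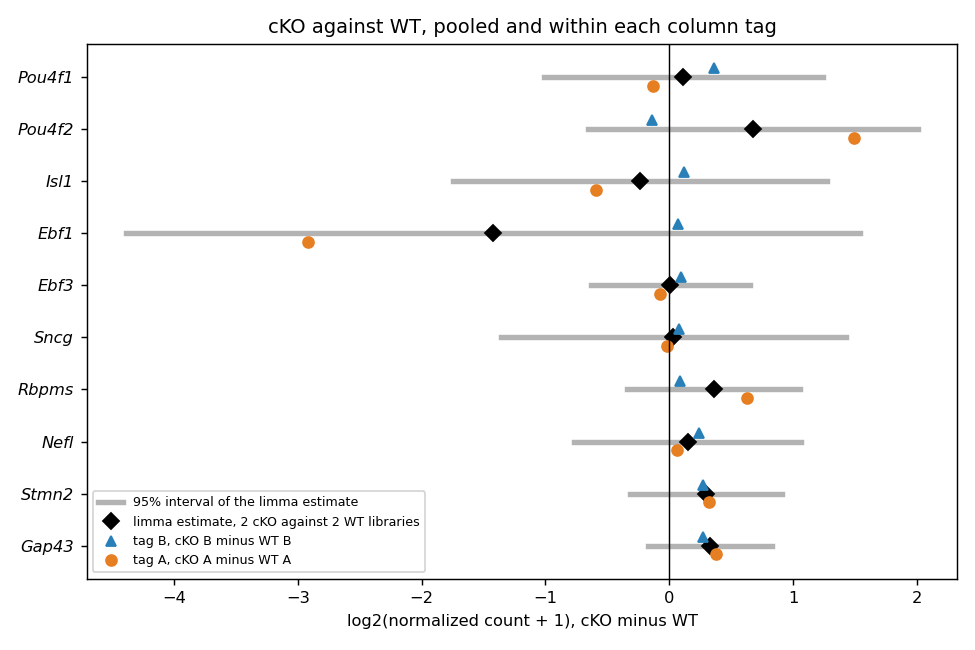
Difference between cKO and WT on the log2(normalized count + 1) scale (x axis) for each gene, as the limma estimate with its 95% interval (diamond and grey bar) and within tag B (triangle) and tag A (circle). Every grey bar crosses 0; Ebf1 and Pou4f2 have the widest gap between their tags, with 0.07 and −0.14 at tag B and −2.92 and 1.49 at tag A.

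Markers of other cells had unequal summed levels in the same libraries. The summed level of 12 microglial markers was 9267 and 1383 normalized counts in the cKO libraries B and A, against 20387 and 21911 in the WT libraries B and A. The sum over 14 rod and photoreceptor precursor markers was 77862 and 65735 in the cKO libraries B and A, against 111680 and 124701 in the WT libraries B and A. The sum over 15 progenitor markers was 626748 and 740436 in the cKO libraries B and A, against 570748 and 542607 in the WT libraries B and A, with 13 of the 15 higher in cKO. Ccnd1 alone gave 253408 and 388895 of it in the cKO libraries B and A, and 223698 and 235937 in the WT libraries B and A. No progenitor, microglial or rod marker was at 0 in any library except 1 microglial marker in cKO library A. Their part in the values of the ganglion cell genes was not tested. The sum over the 10 ganglion cell genes was 16814 and 11900 in the cKO libraries B and A, against 14457 and 10186 in the WT libraries B and A, and Stmn2 and Gap43 make up much of it.

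The members also varied with the column tag. Library B was above library A for 9 of the 10 members in cKO, all but Pou4f2, against 53.7% of all tested genes. It was above library A for 10 of the 10 in WT, against 50.6%. Both B libraries were above both A libraries for 7 of the 10, Pou4f1, Isl1, Ebf1, Ebf3, Sncg, Nefl and Stmn2, against 22.9% of all tested genes. Both B libraries were below both A libraries for 0 of the 10, against 22.6%. The median log2 difference of B minus A over the 10 members was 0.65 in cKO and 0.62 in WT, against 0.06 in cKO and 0.0037 in WT over all tested genes. The tags are no group of the study and hold 2 libraries each, so these differences are described and not tested. The members were chosen with earlier results of these data known, so the shares over all genes are a background and no test.

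The size of the tag difference varied among the members. In the WT pair, which does not include the library that stands apart, the B to A ratio of normalized counts was 2.23 for Sncg, 2.09 for Pou4f2 and 1.85 for Isl1. It was 1.20 for Gap43 and 1.23 for Ebf3, and between 1.37 and 1.68 for the other 5. In the cKO pair the ratio was 2.38 for Sncg, 3.03 for Isl1 and 2.04 for Pou4f1, and 0.671 for Pou4f2. For Ebf1 it was 13.6, over the 12 reads of cKO library A. The other cKO ratios were 1.77 for Nefl, 1.39 for Ebf3, 1.32 for Stmn2, 1.12 for Gap43 and 1.03 for Rbpms.

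**Figure D3:**
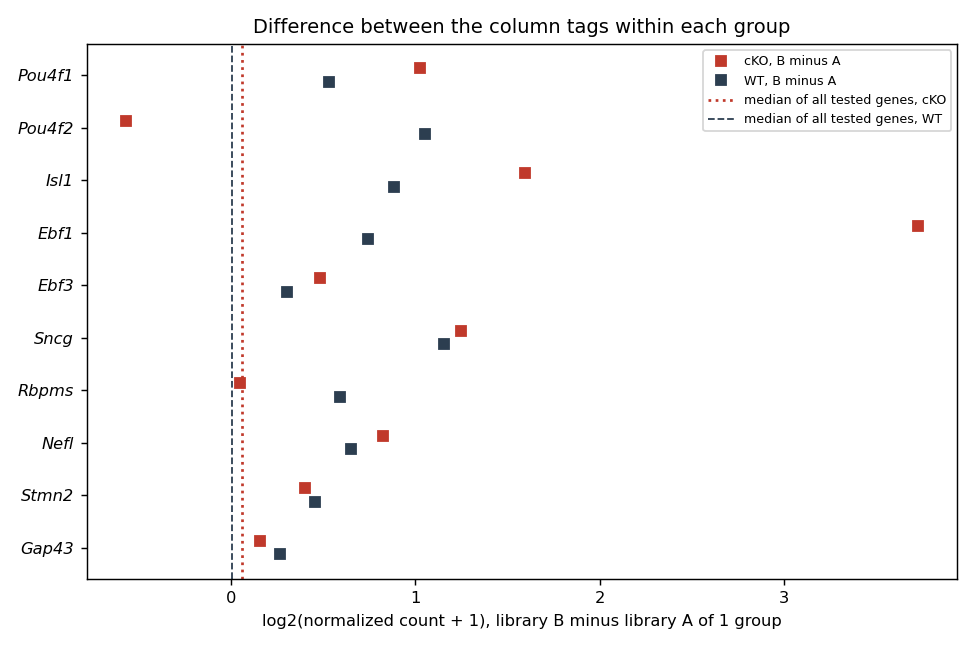
Library B minus library A on the log2(normalized count + 1) scale (x axis) for each gene in cKO (red) and WT (dark), with the median of all tested genes as a dotted line for cKO and a dashed line for WT. All dark squares lie to the right of 0 and 9 of the 10 red squares do, with Ebf1 at 3.73 and Pou4f2 at −0.57 in cKO.

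Other genes of the ganglion cell programme were read from lists outside the 10 members. Of 20 further transcription factors 0 passed over all genes, 5 were higher and 15 lower in cKO. Their median difference was −0.25 on the log2 scale, with −0.0043 within tag B and −0.44 within tag A. Isl2, a LIM factor of ganglion cells that project to the opposite side, had 262 and 69.8 normalized counts in the cKO libraries B and A, against 457 and 399 in the WT libraries B and A. The groups did not overlap, and the log2 fold change was −1.65 with an unadjusted p = 0.0481 in limma, which did not pass over all genes (adjusted p = 0.771). It is named after its values were seen, as the list's 1 gene with an unadjusted p under 0.05. Sox4 and Myt1 were the list's most abundant factors, with log2 fold changes of 0.24 and −0.32.

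Among 15 genes of the axon and neuronal cytoskeleton 0 passed, 11 were higher and 4 lower in cKO. Their median difference was 0.22 on the log2 scale, with 0.22 within tag B and 0.24 within tag A. Stmn1, the most abundant of them and a paralog of Stmn2, had 54093 and 62103 in the cKO libraries B and A, against 44587 and 38527 in the WT libraries B and A, a log2 fold change of 0.48 (limma, adjusted p = 0.771). Dpysl3, a growth cone protein, had 0.15. Among 18 tested genes of the ganglion cell surface, synapse and RNA binding 0 passed, 5 were higher and 13 lower, with a median of −0.10. Snap25, a synaptic vesicle fusion protein of many neurons, had 9808 and 6295 in the cKO libraries B and A, against 16360 and 14467 in the WT libraries B and A, a log2 fold change of −0.97 with an unadjusted p = 0.0107 in limma (adjusted p = 0.771). Robo2, an axon guidance receptor, had −0.12.

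Some further ganglion cell genes had the same order of tags. Both B libraries were above both A libraries for 8 of the 20 transcription factors and for 7 of the 18 surface, synapse and RNA-binding genes. The same held for 2 of the 15 axon and cytoskeleton genes, and for 22.9% of all tested genes. Both B libraries were below both A libraries for 1 of the 20, 3 of the 18 and 3 of the 15, against 22.6% of all tested genes. Slc17a6, the vesicular glutamate transporter that ganglion cells use, had 144 and 53.1 normalized counts in the cKO libraries B and A, against 182 and 77.4 in the WT libraries B and A. Thy1, a surface protein used to purify ganglion cells, had 469 and 61.5 in the cKO libraries B and A, against 443 and 180 in the WT libraries B and A. Ebf2, a relative of Ebf1 and Ebf3, had 94.5 and 30.7 in cKO B and A, against 107 and 44.0 in WT B and A. These genes were chosen for that order after their values were seen, and their values in cKO library A rest on 19 reads for Slc17a6, 22 for Thy1 and 11 for Ebf2. Other genes of the lists were ordered differently. Rbpms2, a relative of Rbpms, had 568 and 905 in the cKO libraries B and A, against 566 and 437 in the WT libraries B and A. Dcc, a netrin receptor that guides axons, was lower in both B libraries, with 1882 and 2202 in the cKO libraries B and A, against 1919 and 2361 in the WT libraries B and A. Tubb3, a tubulin of all neurons, also chosen after its values were seen, was not ordered by tag, with 22393 and 25700 in the cKO libraries B and A, against 19211 and 19146 in the WT libraries B and A.

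The markers of other cells give the comparison. Both B libraries were above both A libraries for 3 of 15 amacrine and horizontal cell markers, 1 of 6 bipolar cell markers and 4 of 15 progenitor markers. The same held for 0 of 14 rod and photoreceptor precursor markers, 0 of 12 microglial markers and 1 of 9 astrocyte and endothelial markers. The share over all tested genes was 22.9%. In the cKO pair the median log2 difference of B minus A was 0.65 for the 10 members. It was 0.66 for the 20 transcription factors, with 17 of the 20 higher in library B, against 53.7% of all tested genes. For the surface, synapse and RNA-binding genes it was 0.37. It was 0.65 for the astrocyte and endothelial markers, 2.73 for the microglial markers, 0.23 for the rod markers and 0.20 for the amacrine and horizontal cell markers. The median was 0.16 for the bipolar cell markers, −0.15 for the axon and cytoskeleton genes and −0.22 for the progenitor markers. Of the 9 astrocyte and endothelial markers 5 were higher in cKO library B, and 3 were at 0 in cKO library A. In the WT pair the median was 0.62 for the 10 members and 0.03 for the 20 transcription factors. There 11 of the 20 were higher in library B, against 50.6% of all tested genes. The WT median was 0.04 for the surface, synapse and RNA-binding genes, −0.05 for the axon and cytoskeleton genes, 0.14 for the progenitor markers and 0.04 for the microglial markers. It was −0.07 for the amacrine and horizontal cell markers, −0.10 for the bipolar cell markers, −0.18 for the rod markers and −0.42 for the astrocyte and endothelial markers. Summed amacrine and horizontal cell markers ran in opposite directions between the tags in the groups, with 63794 and 57672 normalized counts in the cKO libraries B and A, against 59386 and 68973 in the WT libraries B and A. No difference between lists was tested.

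**Figure D4:**
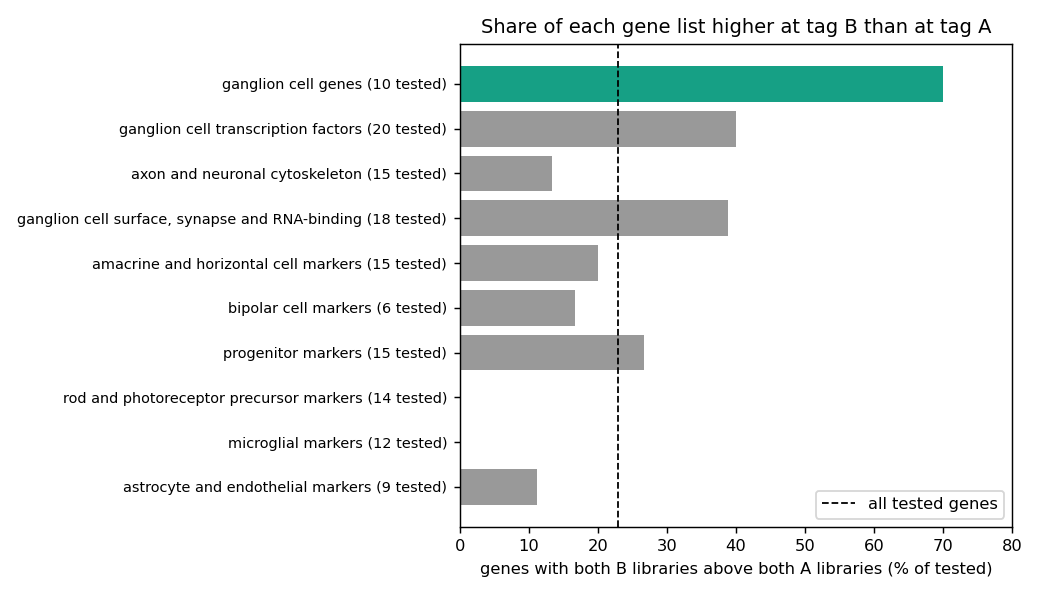
Share of the tested genes of each list (x axis, percent, bars from 0) with both B libraries above both A libraries, with the share over all 14480 tested genes, 22.9%, as a dashed line. The ganglion cell genes stand at 70.0%, with the further transcription factors at 40.0% and the surface, synapse and RNA-binding genes at 38.9%. The axon and cytoskeleton genes stand at 13.3%, below the dashed line.

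The members did not all follow 1 profile. The distance of each gene from the members' mean profile was measured as the root mean square over the 4 libraries of centred log2(normalized count + 1) values. It was 0.06 for Nefl and 0.08 for Pou4f1, and 0.63 for Pou4f2 and 1.24 for Ebf1, the members farthest from their own mean. Among 10272 other genes with a mean of at least 500, 5 were nearer to the mean profile than Nefl and 10237 were nearer than Ebf1. That mean includes each member itself, and in cKO library A it includes Ebf1 at 12 reads, so these ranks are description only. The 5 nearest were Tppp3, Rpl10-ps3, Dtl, Orc6 and Etaa1, at distances of 0.05 to 0.06. Tppp3, a tubulin-binding protein, had 2852 and 1612 in the cKO libraries B and A, against 2667 and 1577 in the WT libraries B and A. Likeness over 4 libraries says nothing of shared function.

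An adjusted p under 0.05 stood in the authors' deposited table for 0 of the 10 members, against 0.292% of the genes with a value. An unadjusted p under 0.05 stood in the authors' deposited table for 1 of the 10, Stmn2 with 0.0476, against 2.85% of the genes with a value.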

How the data were processed

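The authors deposited normalized counts, a signal with 1 value for every gene in every library; the values are reads over a library's size factor. FastQC, TopHat, HTSeq, DESeq and build mm10 are named, without versions or settings, per the submitters' processing notes. Deposited p-value and adjusted p-value columns are the authors' own. All values (100%) were whole multiples of the value of 1 read within 0.01 reads, so reads were recovered. A floor of 3 reads per library corresponds to 8.38 normalized counts in cKO library A and 1.98 to 2.28 in the others; such floors and Poisson intervals cover counting error only. WT columns match numbered samples; both cKO columns are headed replicate 2 and were assigned to their group.

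limma 3.58.1 was fitted to log2(normalized count + 1) for the genes whose mean reached 10 (mean-dependent prior, two-sided, Benjamini-Hochberg at 0.05) in R 4.3.3; fold changes are cKO minus WT on that scale, and the added 1 understates changes of low genes. Fits were tested on simulated reads with the same spread beyond counting error for every gene and library, so the test does not cover a library that stands apart. Alternatives included edgeR 4.0.16 and DESeq2 1.42.0 on recovered reads, other pseudocounts and filters, rescaling and no trend. Further ones were a block on the column tag and each library left out. Figures, lists and motifs used Python 3.11.15. Members and gene lists were chosen with earlier results of these data known. The rule for naming was all members, per list up to 4 genes that passed or else the 2 with the highest mean, the 5 nearest profiles and Casz1. No list gene passed, and both of the 2 highest are named only for the further ganglion cell lists. Ccnd1 is among the 2 highest progenitor markers, and the other of them is left out. Isl2, Slc17a6, Thy1, Ebf2, Rbpms2, Dcc, Tubb3, Nefm, Nefh and Prph fall outside that rule and were named after their values were seen. Nr2e3 falls within it, among the rod markers, but is named as the gene that DESeq2 called. Exon lengths, overlaps and transcripts are from GENCODE M21, and promoters from RefSeq. Promoter windows and proteins of other members were not used here.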

Additional observations from a re-analysis of the deposited data

How the results depend on the processing

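No member passed over all genes, and none changed sign, with other pseudocounts, filters, rescaling, no trend, edgeR, DESeq2 or the block. The count over all genes was 0 in these fits except DESeq2, which called 1 gene, Nr2e3, a rod nuclear receptor named because the count is small (log2 fold change −1.18, adjusted p = 0.0375). In limma, edgeR and DESeq2 274, 208 and 369 genes had an unadjusted p under 0.05. With each library left out the count ranged from 0 to 5768, the median of the 10 members from −0.25 (without cKO library B) to 0.47 (without cKO library A), and −0.15 without WT library A. The log2 fold changes ranged from −0.40 to 0.63 for Pou4f1, −1.03 to 0.56 for Isl1, −3.29 to 0.44 for Ebf1, −0.23 to 0.25 for Ebf3, −0.59 to 0.66 for Sncg and −0.26 to 0.56 for Nefl, each crossing 0. Pou4f2, Rbpms, Stmn2 and Gap43 stayed above 0. A fit without 1 library sets tags unevenly against each other, so the tag difference enters it. With the block on the column tag 0 genes passed (1375 at an unadjusted p under 0.05), and Ebf1 had an unadjusted p = 0.0483 in limma. No label ties the tags to a shared source, and same-tag deviations correlated at 0.258 across genes. Depth limits Ebf1, Isl1, Pou4f1 and Pou4f2 in cKO library A, at 12 to 80 reads.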
